A study of Mus musculus with 9 samples.

Results

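Transforming growth factor beta (TGF-beta) signaling was examined on 9 microarrays of mouse lung RNA through 10 genes, taken by name: the ligands Tgfb1, Tgfb2, Tgfb3 and Inhba, the matrix protein Ltbp2, the receptors Tgfbr1, Tgfbr2 and Tgfbr3, and the intracellular mediators Smad3 and Smad7. These genes were chosen with earlier results of these data known. They were 10 of the 19694 genes that were named on the arrays and tested, were covered by 14 probes, and each was represented by its brightest probe. The RNA came from the lungs of male C57BL/6 mice, for which the labels give an age of 10 weeks. The methods give this age for the mice as housed, and the age at tissue collection is not stated. For 4 arrays the labels say control and for 5 they say irradiated left lung, with no dose, lung region or time after exposure given. According to the methods, the left lung was irradiated either in a small central area or diffusely, tissue beside the irradiated area was also collected, and RNA from repeated experiments was pooled before labeling. An array is therefore a pool. The irradiated arrays may differ among themselves in dose, region or time, and p-values measure only the spread between these arrays.

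TGF-beta is secreted in a latent complex, held in the extracellular matrix by most latent TGF-beta binding proteins, and is freed by integrins, proteases or thrombospondin. The active ligand brings the type II receptor Tgfbr2 and the type I receptor Tgfbr1 together, and the type I receptor phosphorylates Smad2 and Smad3, which enter the nucleus with Smad4 and switch on matrix genes. Smad7 is an inhibitory Smad that is itself switched on by the pathway. In the lung the pathway is best known as a driver of fibrosis.

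In a comparison of all 9 arrays without a block, none of the 10 genes passed the threshold. The threshold was a limma p below 0.05 after adjustment over all probes. Inhba, Ltbp2, Tgfbr1 and Tgfbr2, 4 of the 10, lay higher on the irradiated arrays with an unadjusted limma p below 0.05. Such a p was reached by 12.3% of all genes. In the authors' normalized table Tgfbr1 and Tgfbr2 did not reach it. Scan features also allowed the arrays to be paired, after the data had been seen, and the call changed with these pairs. With the pair as a random block over all 9 arrays these 4 genes passed, where 7.37% of all probes passed. With the pair as a fixed block, without irradiated array 1, Inhba alone passed, where 2.8% of all probes passed. The activin subunit gene Inhba had by far the widest difference, 2.16-fold on average, and was high on 4 of the 5 irradiated arrays. On irradiated array 1 Inhba was as low as in the controls, and without that array it passed the threshold. The differences of the remaining ligands, of the co-receptor Tgfbr3 and of both Smads were between -0.28 and 0.24 on the log2 scale, and none of them passed.

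The promoters of these 4 genes are shown because they were the members with the smallest p, a choice made after their values were seen. They were taken from the RefSeq table of promoters of the mouse assembly GRCm38.p6, each running from 250 bases before to 50 bases after the annotated start of transcription, on the strand of the gene. Both strands were searched. Capitals mark the letters CAGAC, which form the core of a Smad binding site. A match on the opposite strand reads GTCTG. Capitals also mark a TATA box, the letters TATAAA. No match of one overlapped a match of the other in these promoters.
Inhba, chr13:16011601-16011900, plus strand: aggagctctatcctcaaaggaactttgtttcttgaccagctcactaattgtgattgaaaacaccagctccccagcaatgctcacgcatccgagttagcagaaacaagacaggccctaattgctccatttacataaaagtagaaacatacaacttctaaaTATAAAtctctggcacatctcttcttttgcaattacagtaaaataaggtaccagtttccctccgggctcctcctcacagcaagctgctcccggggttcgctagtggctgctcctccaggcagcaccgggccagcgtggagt
Ltbp2, chr12:84876442-84876741, minus strand: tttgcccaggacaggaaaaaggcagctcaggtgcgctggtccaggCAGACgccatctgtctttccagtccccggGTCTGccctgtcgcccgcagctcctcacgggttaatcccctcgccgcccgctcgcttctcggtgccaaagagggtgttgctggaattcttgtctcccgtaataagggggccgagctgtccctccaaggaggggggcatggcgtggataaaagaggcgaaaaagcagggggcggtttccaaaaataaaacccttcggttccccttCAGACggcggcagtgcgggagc
Tgfbr1, chr4:47352972-47353271, plus strand: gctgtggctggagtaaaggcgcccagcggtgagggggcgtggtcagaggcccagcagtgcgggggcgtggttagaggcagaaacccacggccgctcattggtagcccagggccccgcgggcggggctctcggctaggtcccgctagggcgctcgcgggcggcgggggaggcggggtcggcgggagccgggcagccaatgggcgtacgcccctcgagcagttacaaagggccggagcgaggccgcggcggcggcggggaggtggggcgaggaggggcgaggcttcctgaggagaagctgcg
Tgfbr2, chr9:116175314-116175613, minus strand: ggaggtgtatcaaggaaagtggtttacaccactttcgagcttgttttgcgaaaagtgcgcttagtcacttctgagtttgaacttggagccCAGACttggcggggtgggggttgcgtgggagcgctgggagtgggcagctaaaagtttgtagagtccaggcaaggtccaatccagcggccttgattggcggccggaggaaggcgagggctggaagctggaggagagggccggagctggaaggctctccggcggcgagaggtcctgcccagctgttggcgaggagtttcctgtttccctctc
The Inhba promoter held TATAAA with its first base at position -91 from the start and no CAGAC. The Ltbp2 promoter held 3 CAGAC matches, with first bases at -205, -176 and 29. That of Tgfbr2 held 1, at -160, and the Tgfbr1 promoter shown held none, whereas a second annotated Tgfbr1 start, at chr4:47385966-47386265, had 1 at -203. Of the RefSeq promoters, 8 for 7 of the 10 genes were searched, of which 4 held CAGAC, 2 held TATAAA and 0 held the AP-1 letters TGANTCA. Any promoters of the 10 genes on 1 chromosome were left out of this count, but that chromosome was kept in the shares that follow. Over all 32851 promoters of this length the shares were 49.6%, 13.6% and 7.81%. A match is a description of the letters only.

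All 10 genes were well above background on every array, and no spot was saturated. Between 72.8% and 89.1% of the gene-probe spots of an array were well above background. Over all 39303 probes, 131 passed an adjusted p below 0.05, which is a share of 0.333%, with 75 higher and 56 lower on the irradiated arrays. Lung identity was checked with markers of alveolar epithelium: 9 of 9 were well above background on all arrays, and their mean log2 level minus the control mean was between -0.07 and 0.23. The markers of heart and skeletal muscle set 2 arrays apart. On the same scale cardiac markers lay at -5.39 on irradiated array 1, against -0.44 to 0.38 on the other irradiated arrays, and skeletal muscle markers lay at 4.44 on control array 3, against -1.82 to -1.22 on the other controls. The members are therefore also given without these arrays.

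The 3 TGF-beta isoforms were measured on all arrays without a difference that passed the threshold. For Tgfb1, the isoform most often tied to fibrosis, the intensity, corrected for background and quantile normalized between arrays, was 2620.2, 1686.5, 1789 and 1894.4 on control arrays 1 to 4, and 2154.7, 3066.5, 2260, 1738.3 and 1668.3 on irradiated arrays 1 to 5. Control array 1 and irradiated array 2 were the highest of their groups, and the groups overlapped over most of their range. The mean difference in log2 intensity was 0.11 ± 0.20 (SE, 95% interval -0.33 to 0.55, limma adjusted p = 0.930, exact permutation p = 0.619). It became 0.25 without control array 1 and -0.021 without irradiated array 2, so its direction rested on the latter.

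Tgfb2 had an intensity of 5676.3, 4423.3, 4813.1 and 5808.1 on control arrays 1 to 4, and 7638.4, 7263.6, 5998, 5187.6 and 4820.6 on irradiated arrays 1 to 5. Irradiated arrays 1 to 3 lay above every control, and irradiated arrays 4 and 5 lay among the controls. The log2 difference was 0.24 ± 0.16 (SE, 95% interval -0.11 to 0.59, limma adjusted p = 0.700, exact permutation p = 0.206), and 0.16 without irradiated array 1. A dimmer probe for Tgfb2 gave 0.34 ± 0.17 (limma adjusted p = 0.556). Tgfb3 had an intensity of 5450.1, 5675.5, 4418.6 and 6916.5 on control arrays 1 to 4, and 5456.9, 4866.5, 4621.7, 4171.9 and 4823.7 on irradiated arrays 1 to 5. All irradiated arrays were below the control mean, yet control array 3 was lower than 4 of the 5. The log2 difference of Tgfb3 was -0.22 ± 0.13 (SE, 95% interval -0.51 to 0.07, limma adjusted p = 0.665, exact permutation p = 0.159), and it was -0.11 without control array 4, -0.33 without control array 3, and -0.37 ± 0.11 without irradiated array 1 and control array 3 (limma adjusted p = 0.272).

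Inhba encodes the beta A subunit of activin A, a ligand that signals through activin receptors to the same Smad2 and Smad3. Its normalized intensity was 528.67, 331.98, 434.65 and 466.51 on control arrays 1 to 4, and 321.81, 1595.7, 1051, 1242.6 and 1075.8 on irradiated arrays 1 to 5. Irradiated arrays 2 to 5 were each above every control array, whereas irradiated array 1 was the lowest of all 9. The mean log2 intensity was 8.76 ± 0.28 (SD, n = 4) in the control arrays and 9.87 ± 0.89 (SD, n = 5) in the irradiated arrays. The log2 difference was 1.11 ± 0.40 (SE, 95% interval 0.21 to 2.01), and it did not pass the threshold (limma adjusted p = 0.356, exact permutation p = 0.0635). Only 1.35% of the tested genes had as large a rise in the group mean.

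When irradiated array 1 was left out, the difference of Inhba was 1.48 ± 0.19 (SE) and passed the threshold with a limma adjusted p of 0.0129, where 1.23% of all probes passed. Without irradiated array 1 and control array 3 it was 1.49 ± 0.21 with a limma adjusted p of 0.0425, where 0.372% of all probes passed. Inhba was the 1 member that passed in each of these fits, the second of which was chosen after the data had been seen. Without both arrays the difference was 0.38 for Ltbp2, 0.33 for Tgfbr1 and 0.37 for Tgfbr2, and 0.06 for Tgfb1, 0.13 for Tgfb2, -0.21 for Tgfbr3, -0.14 for Smad3 and -0.18 for Smad7, none of which passed. The low level of heart muscle transcripts and the low Inhba level were thus found on the same array. The part of the first in the second was not tested.

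**Figure D1:**
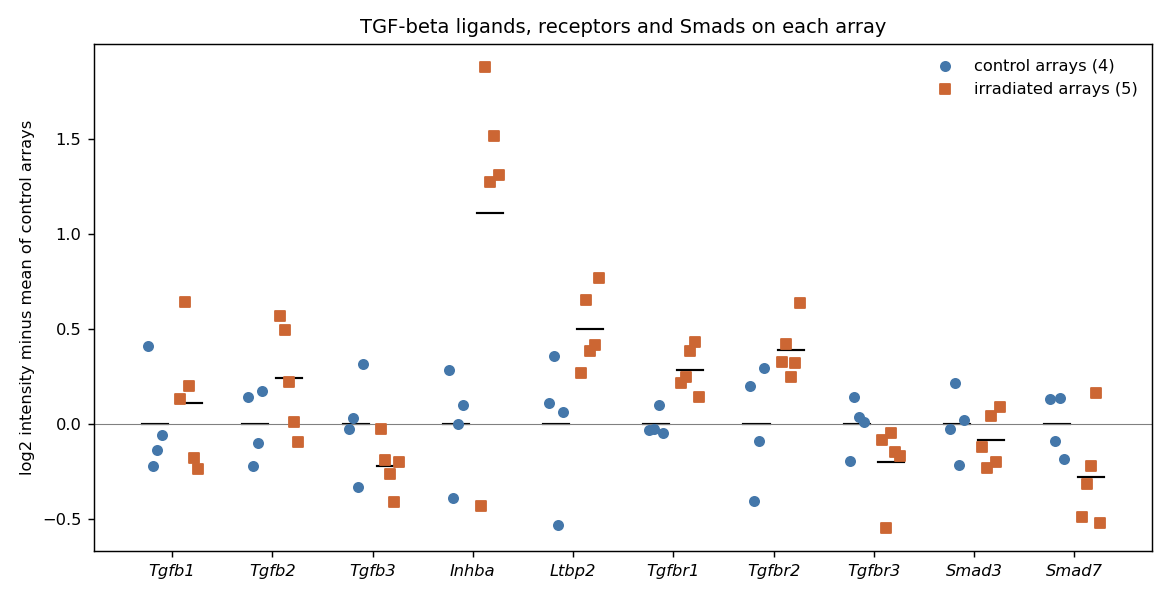
Log2 normalized intensity of each of the 10 genes minus the mean of the 4 control arrays, with 1 point per array (circles are control and squares irradiated arrays) and a bar at each group mean. Inhba stands at 1.11 on average with irradiated array 1 just under the lowest control, and Tgfbr1 is the gene whose groups do not overlap.

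Ltbp2 is a matrix protein of the latent TGF-beta binding family, found with elastic fibers, which unlike its relatives does not bind latent TGF-beta itself. Its intensity was 20418, 24214, 13084 and 19793 on control arrays 1 to 4, and 22808, 29776, 24662, 25265 and 32222 on irradiated arrays 1 to 5. Control array 3 was the lowest, and 4 of the 5 irradiated arrays lay above every control. The log2 difference was 0.50 ± 0.17 (SE, 95% interval 0.11 to 0.89), a 1.41-fold difference, with a limma adjusted p of 0.329 and an exact permutation p of 0.0238. Leaving out control array 3 lowered it to 0.32, and leaving out control array 2 raised it to 0.62.

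The signaling receptors Tgfbr1 and Tgfbr2 both lay higher on the irradiated arrays. For Tgfbr1, the type I receptor kinase, the intensity was 3897.5, 3910.4, 4276.7 and 3859.6 on control arrays 1 to 4, and 4623.7, 4728.3, 5195.7, 5381.7 and 4400.8 on irradiated arrays 1 to 5. Every irradiated array was above every control array, with control array 3 the highest of its group. Of the 10 genes it was the 1 whose groups did not overlap, a separation also found in 5.14% of all genes tested. The log2 difference was 0.28 ± 0.09 (SE, 95% interval 0.09 to 0.48), or 1.22-fold, with a limma adjusted p of 0.249 and an exact permutation p of 0.0159. The dimmer second probe gave 0.27 ± 0.30 (SE, limma adjusted p = 0.862), with overlapping groups.

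Tgfbr2, the type II receptor that binds the ligand first, had an intensity of 35568, 23384, 29092 and 38000 on control arrays 1 to 4, and 38851, 41491, 36823, 38682 and 48227 on irradiated arrays 1 to 5. The lowest irradiated array was below control array 4 and above the other controls. The log2 difference was 0.39 ± 0.14 (SE, 95% interval 0.07 to 0.71), or 1.31-fold, with a limma adjusted p of 0.367 and an exact permutation p of 0.0159. Without control array 2 it was 0.26. A dimmer probe for Tgfbr2 gave 0.23 ± 0.10 (SE, limma adjusted p = 0.499), and on that probe the groups did not overlap. Tgfbr3, or betaglycan, is a co-receptor that presents ligand, TGF-beta2 above all, to Tgfbr2. It had an intensity of 8067.2, 10175, 9452.6 and 9270.6 on control arrays 1 to 4, and 8680.2, 6312.5, 8923.2, 8322.8 and 8189.5 on irradiated arrays 1 to 5. All irradiated arrays were below the control mean, irradiated array 2 most of all, but control array 1 lay among them. The log2 difference of Tgfbr3 was -0.20 ± 0.12 (SE, 95% interval -0.46 to 0.06, limma adjusted p = 0.653, exact permutation p = 0.119), and it was -0.11 without irradiated array 2.

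The difference of neither Smad passed the threshold. Smad3, the receptor-activated Smad, had an intensity of 7361.1, 8718.8, 6467.3 and 7619.2 on control arrays 1 to 4, and 6911.6, 6397.4, 7719.8, 6536.6 and 7990.4 on irradiated arrays 1 to 5. The groups covered nearly the same range, and the log2 difference was -0.08 ± 0.11 (SE, 95% interval -0.32 to 0.16, limma adjusted p = 0.891, exact permutation p = 0.437). On leaving out single arrays it ran from -0.15, without control array 3, to -0.0098, without control array 2. A dim second Smad3 probe had the opposite sign, 0.07 ± 0.24 (SE). Smad7, the inhibitory Smad, had an intensity of 6297.5, 5406.8, 6311.4 and 5058.3 on control arrays 1 to 4, and 4090.7, 4621.5, 4928.1, 6422.8 and 3999.3 on irradiated arrays 1 to 5. It was below every control on 4 of the 5 irradiated arrays, and irradiated array 4 was the highest of all 9. The log2 difference was -0.28 ± 0.15 (SE, 95% interval -0.60 to 0.05, limma adjusted p = 0.593, exact permutation p = 0.111). Without irradiated array 4 it was -0.39 ± 0.11 (SE, limma adjusted p = 0.305), and without irradiated array 5 it was -0.22.

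Over the 10 genes, 6 were higher and 4 lower on the irradiated arrays, with a median log2 difference of 0.18 beside 0.0085 over all genes tested. An unadjusted limma p below 0.05 was reached by 4 of the 10, Inhba, Ltbp2, Tgfbr1 and Tgfbr2, and by 12.3% of all genes. As small a p as that of Tgfbr1 was found in 4.03% of the genes tested, and as small a p as those of Ltbp2, Inhba and Tgfbr2 in 6.61%, 7.51% and 7.76%. The genes that followed Tgfbr1 most closely over the 9 arrays, among 15237 genes well above background throughout, were Gpc4 (r = 0.974), Mex3a (r = 0.971) and Gpr160 (r = 0.961). Those closest to Ltbp2 were Pth1r (r = 0.985), Cyba (r = 0.963) and Fuom (r = 0.953). These correlations describe 9 arrays in 2 groups, which share their normalization.

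The arrays could also be set in pairs by features of their scan. The vertical start of the scan and the level of local background matched control array 1 with irradiated array 2, control 2 with irradiated 3, control 3 with irradiated 4 and control 4 with irradiated 5, with irradiated array 1 left unpaired. The files name no slide for these pairs, which were formed after the data had been seen. The deviations from the group means, over 15238 genes well above background on all arrays, correlated at 0.53, 0.28, 0.43 and 0.55 within the pairs, against -0.39 to 0.12 in the 16 other combinations of a control and an irradiated array. Members were therefore also compared within pairs.

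Within the 4 pairs, Inhba was higher on the irradiated array by 1.59, 1.66, 1.52 and 1.21 log2 units. Tgfbr1 was higher by 0.28, 0.41, 0.33 and 0.19, and Tgfbr2 by 0.22, 0.66, 0.41 and 0.34. Ltbp2 was higher by 0.54, 0.03, 0.95 and 0.70. These 4 genes, the members with the smallest p without a block, were thus higher in every pair, although Ltbp2 barely so in the second. Tgfbr3 was lower in every pair, by values from -0.35 to -0.18, and so was Tgfb3, by values from -0.52 to -0.08. Tgfb1, Tgfb2, Smad3 and Smad7 went both ways. The share of all genes that kept 1 direction in all 4 pairs was not measured.

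**Figure D2:**
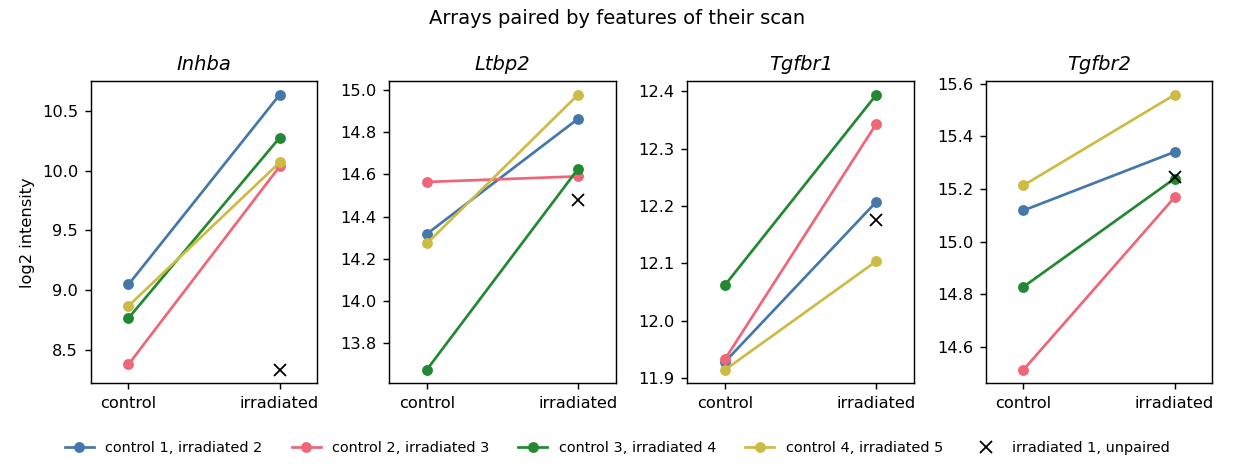
Log2 normalized intensity of Inhba, Ltbp2, Tgfbr1 and Tgfbr2 on control and irradiated arrays, with a line for each of the 4 pairs of arrays with like scan features and a cross for irradiated array 1, which had no partner. All lines go up, from 0.03 log2 units for Ltbp2 in the pair of control 2 to 1.66 for Inhba in the same pair.

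With the pair as a fixed block, a fit that left out irradiated array 1, Inhba rose by 1.48 ± 0.10 log2 units (SE, limma adjusted p = 0.0213), and it was the 1 member of 10 to pass, where 2.8% of all probes passed. Tgfbr1 (0.30 ± 0.06), Tgfbr2 (0.41 ± 0.08) and Tgfbr3 (-0.23 ± 0.05) did not pass, with limma adjusted p-values of 0.0664, 0.0720 and 0.0995. With the pair as a random block over all 9 arrays, 4 of the 10 genes passed, where 7.37% of all probes passed. These were Inhba (1.34 ± 0.26, limma adjusted p = 0.0158), Tgfbr1 (0.30 ± 0.06, adjusted p = 0.0139), Tgfbr2 (0.40 ± 0.09, adjusted p = 0.0263) and Ltbp2 (0.53 ± 0.13, adjusted p = 0.0399). Inhba also passed without irradiated array 1 and without a block, as given above. Over the fit without a block and both fits with pairs, the difference ran from 0.50 to 0.56 for Ltbp2, from 0.28 to 0.30 for Tgfbr1 and from 0.39 to 0.41 for Tgfbr2.

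**Figure D3:**
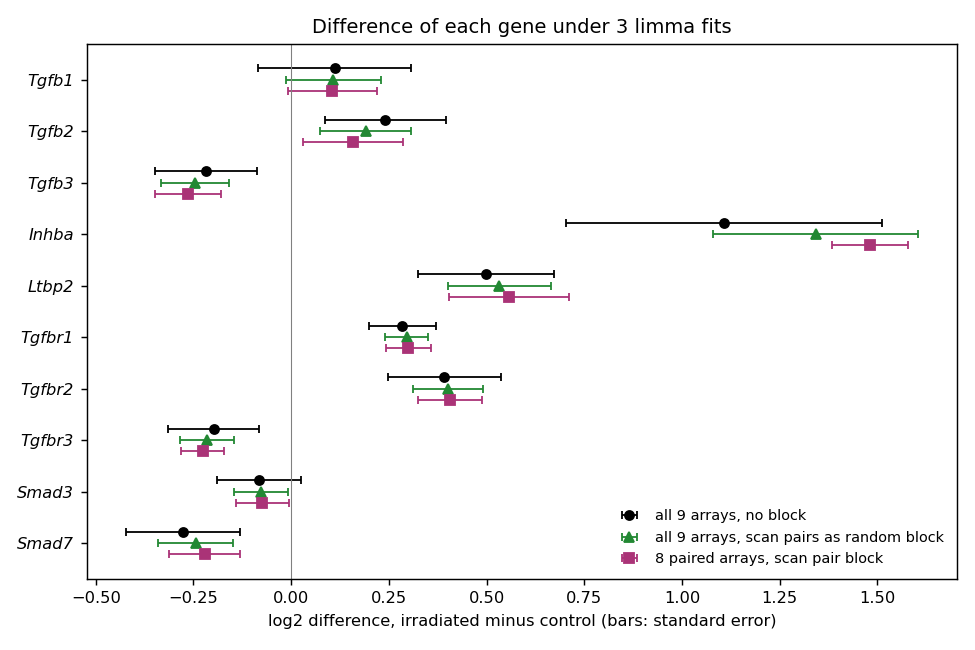
Log2 difference between irradiated and control arrays for each of the 10 genes (bars, standard error) in 3 limma fits: all 9 arrays without a block, all 9 arrays with scan pairs as a random block, and the 8 paired arrays with the pair as a fixed block. The standard error of Inhba is 0.40 without a block, 0.26 with the random block and 0.10 with the fixed block. The fixed block fit also leaves out irradiated array 1, and without that array and without a block (not shown) the standard error was 0.19.

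The other genes of the pathway were read in 6 lists, by role, and 79 of them were tested. In the comparison of all 9 arrays without a block 1 of the 79 passed, the target gene Fn1, beside 0.333% of all probes. Of the 79, 48 were higher and 31 lower, with a median log2 difference of 0.08. An unadjusted p below 0.05 was found for 20 of them, 13 higher and 7 lower, and for 12.3% of all genes tested. The median was 0.37 for the target genes and 0.17 for genes of latency and activation, and -0.29 for the other receptors.

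Of 12 other ligands 6 were higher and 6 lower, none passed, and 1 in each direction had an unadjusted p below 0.05. Bmp6, a bone morphogenetic protein (BMP), was at 12.52 ± 0.30 (SD, n = 4) on the control and 11.78 ± 0.22 (SD, n = 5) on the irradiated arrays, a log2 difference of -0.74 ± 0.16 (SE, limma adjusted p = 0.104). Inhbb, which encodes another activin beta subunit, differed by 0.33 ± 0.14 (SE, limma adjusted p = 0.493). Of 13 genes of latency and activation 11 were higher, none passed, and 3 higher and 1 lower had an unadjusted p below 0.05. Itgb6, whose protein pairs with the alpha V integrin encoded by Itgav to free latent TGF-beta at epithelial surfaces, differed by 0.72 ± 0.20 (SE, limma adjusted p = 0.216), and Itgav by 0.38 ± 0.14 (SE, limma adjusted p = 0.366).

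Of 10 other receptors 6 were lower, none passed, and 3, all lower, had an unadjusted p below 0.05. The log2 difference of Acvr1c, or ALK7, was -2.19 ± 0.70 (SE, limma adjusted p = 0.280), but its probe was well above background on 3 of the 5 irradiated arrays only. Acvrl1, the endothelial BMP9 receptor ALK1, differed by -0.41 ± 0.13 (SE, limma adjusted p = 0.286). Of 7 other Smads and partners 5 were lower, none passed, and 1 in each direction had an unadjusted p below 0.05. For Smad6, the inhibitory Smad of the BMP branch, every irradiated array was below every control, with a difference of -0.66 ± 0.19 (SE, limma adjusted p = 0.224). For Smad2, the partner of Smad3, every irradiated array was above every control, with a difference of 0.32 ± 0.11 (SE, limma adjusted p = 0.339). Of 15 inhibitors 7 were higher and 8 lower, and none passed or had an unadjusted p below 0.05. Dcn, or decorin, a proteoglycan that binds TGF-beta, differed by -0.49 ± 0.25 (SE, limma adjusted p = 0.566), and Pmepa1, a feedback inhibitor, by 0.24 ± 0.13 (SE, limma adjusted p = 0.593).

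The 22 target genes held 18 that were higher and 4 that were lower. Fn1, which encodes fibronectin, rose by 0.90 ± 0.13 log2 units (SE, limma adjusted p = 0.0327, exact permutation p = 0.00794, the smallest that 4 against 5 arrays can give). Its log2 intensity was 15.23 to 15.47 in the controls and 15.93 to 16.59 after irradiation. Lox, a collagen cross-linking enzyme, differed by 0.63 ± 0.14 (SE, limma adjusted p = 0.122), also without overlap. Fn1 no longer passed when any array other than irradiated array 1 was left out. Acta2, the smooth muscle actin of myofibroblasts and of vessel and airway walls, was the target with the most negative value, -0.61 ± 0.20 (SE, limma adjusted p = 0.293).

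**Figure D4:**
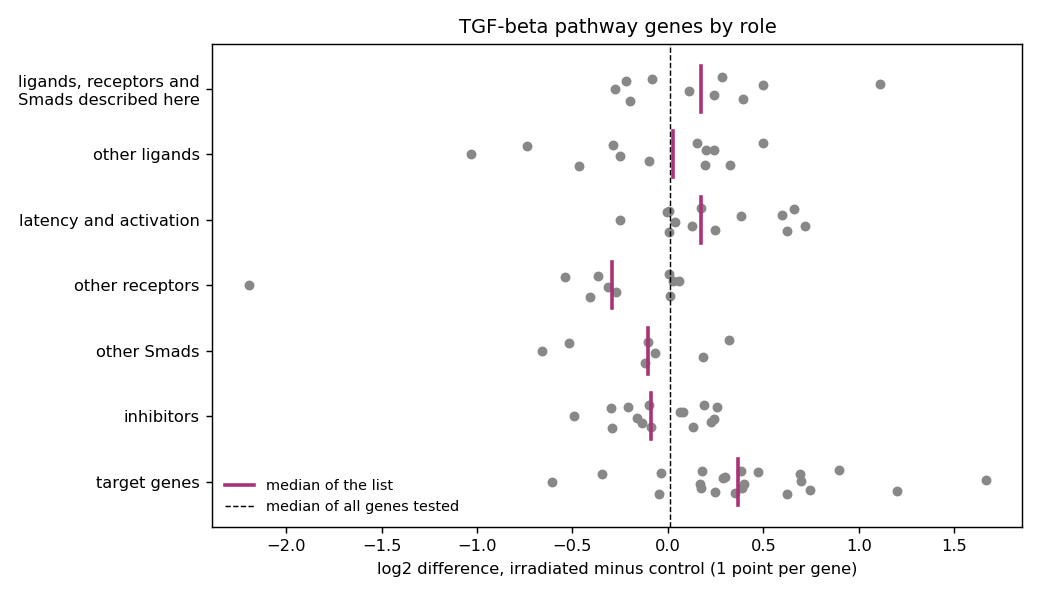
Log2 difference between irradiated and control arrays for the 10 genes described here and for 79 other genes of the pathway in 6 lists, with 1 point per gene, a vertical bar at the median of each list and a dashed line at the median of all genes tested, 0.0085. The target genes have the highest median, 0.37, and the other receptors the lowest, -0.29.

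Within scan pairs, with the fixed block, 11 of the 79 genes passed, where 2.8% of all probes passed, and 10 of them are described. Higher were the activators Itgb6 (0.85 ± 0.12) and Thbs1 (0.82 ± 0.11), the latter encoding thrombospondin-1, and the targets Fn1 (0.98 ± 0.11), Timp1 (1.94 ± 0.19), Snai1 (0.83 ± 0.06) and Lox (0.69 ± 0.11). Timp1 encodes an inhibitor of matrix metalloproteinases, and Snai1 encodes a transcription factor of epithelial to mesenchymal transition. Lower were Bmp2 (-0.45 ± 0.07), Acvrl1 (-0.50 ± 0.05), Smad9 (-0.69 ± 0.09) and Acta2 (-0.44 ± 0.05). With the random block Bmp2 did not pass (-0.39 ± 0.13, limma adjusted p = 0.0979), and the other 9 genes named here did. Bmp6 (-0.79 ± 0.12, limma adjusted p = 0.00678) and Smad6 (-0.71 ± 0.13, limma adjusted p = 0.0133) passed with the random block and not with the fixed block. So did Acvr1c (-2.03 ± 0.50, limma adjusted p = 0.0384) and the target Postn (0.45 ± 0.12, limma adjusted p = 0.0446). In that fit 7.37% of all probes passed. Bmp2 encodes a BMP ligand and Smad9 a receptor-activated Smad. All values are log2 differences with SE. With the fixed block the limma adjusted p-values of the 10 genes described ran from 0.0234 to 0.0470.

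Cell type markers were read on the same arrays, and of 9 lists the platelet list was the 1 whose array means did not overlap between the groups. Of the macrophage markers 8 of 9 were higher on the irradiated arrays, and their mean level relative to the control mean ran from -0.32 to 0.36 on the control and from 0.27 to 0.62 on the irradiated arrays. Platelets and megakaryocytes store TGF-beta1, and their 6 markers were all lower, with means of -0.12 to 0.23 on the control and -1.08 to -0.30 on the irradiated arrays. Smooth muscle markers were lower for 7 of 8, with means of -0.21 to 0.28 and -0.67 to -0.01. Every marker of these 3 lists was well above background on all 9 arrays. Fibroblast markers ran from -0.06 to 0.14 and from -0.13 to 0.23, endothelial markers from -0.08 to 0.13 and from -0.22 to 0.14, and markers of other leukocytes from -0.21 to 0.43 and from -0.72 to 0.14. No gene of the 9 marker lists passed the limma threshold when all 9 arrays were compared without a block. An unadjusted p below 0.05 was found for 4 macrophage markers, all higher, 4 platelet markers, all lower, and 4 smooth muscle markers, 3 of them lower, beside 12.3% of all genes tested. It was also found for 3 fibroblast markers, Mfap4 (log2 difference 0.95 ± 0.20, SE) and Dpt (0.58 ± 0.12), higher without overlap, and Pi16 (-0.77 ± 0.28), for 2 alveolar markers, both higher, and for 1 endothelial and 1 skeletal muscle marker, both lower. With scan pairs as a fixed block, where 2.8% of all probes passed, 3 macrophage, 1 fibroblast and 1 alveolar marker passed as higher, and 2 smooth muscle, 1 fibroblast and 1 endothelial marker as lower. With the random block, where 7.37% of all probes passed, 4 macrophage, 2 fibroblast, 1 smooth muscle and 1 alveolar marker passed as higher, and 3 platelet, 2 smooth muscle, 1 fibroblast, 1 endothelial and 1 alveolar marker as lower. The part of cell composition in the differences of Inhba, Ltbp2, Tgfbr1 and Tgfbr2 was not tested, and in bulk tissue fewer cells of a type and less RNA per cell cannot be told apart.

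**Figure D5:**
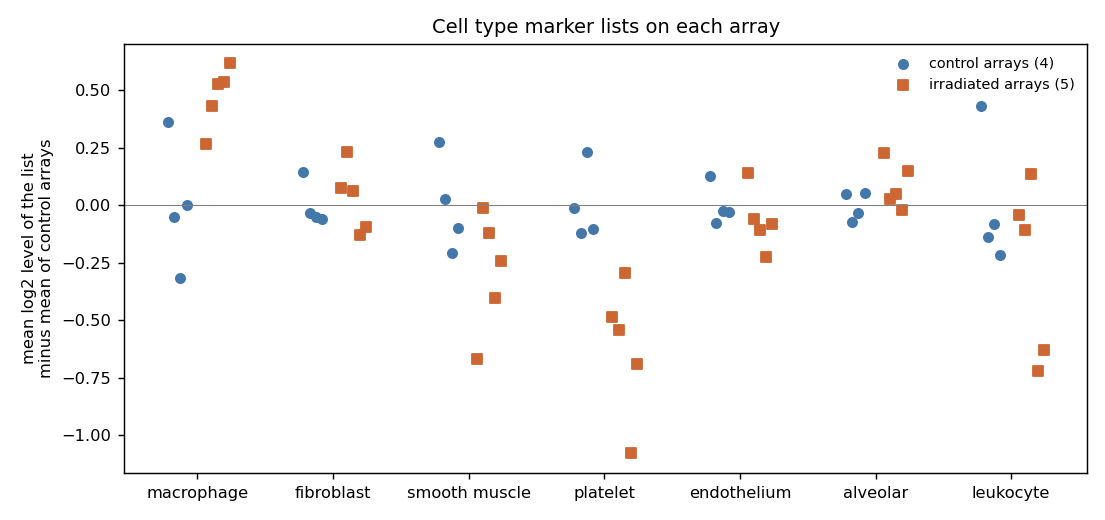
Mean log2 level of 7 cell type marker lists on each array, with the mean of the 4 controls set to 0 (circles are control and squares irradiated arrays). On the irradiated arrays platelet markers lie between -1.08 and -0.30 and macrophage markers between 0.27 and 0.62.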

How the data were processed

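Total RNA of mouse lung was hybridized in 1 color to 9 Agilent 44K arrays, 4 control and 5 irradiated per the labels. The authors deposited Feature Extraction output, used here as intensity (processed signal, with median signal and local background for an alternative), and a table of normalized intensity, whose values match the scanner values in rank on every array. Per the methods, probes over 1.4 times local background were quantile normalized and repeated spots averaged. A similar procedure was followed here on the processed signal. Control spots and outlier spots were left out, and 39303 of 39429 probes over 1.4 times local background on at least 4 arrays were kept. The log2 values were quantile normalized. The filter on outlier spots and the number of arrays were choices made here. Accessions gave symbols for 26049 probes and 19747 genes through a RefSeq table of GRCm38.p6. The accessions differ between 2 sets of arrays (7 and 2), and those of the 7 were used.

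Groups were compared with limma 3.58.1 under R 4.3.3, with a variance that followed intensity, no covariates and Benjamini-Hochberg adjustment over all probes at 0.05, and checked on simulated data. Exact permutation tests were two-sided. Intervals are 95%. The number of arrays limits the precision. All members were named, and of each pathway list the genes past the threshold or, where fewer than 2 passed, the 2 with the smallest p. The genes past the threshold within scan pairs, and Acta2 in the comparison of all arrays, were named after their values were seen. The members and lists were chosen with earlier results of these data known. Cd68 and Rtkn2 were not found on the arrays, and 1 gene past the threshold within scan pairs is not reported here. Other settings tried were background correction by normexp (offset 50), 75th percentile scaling, other background filters, the authors' table, leaving out arrays, a replicate block, scan pairs as blocks, no intensity trend, array weights, an adjusted p below 0.01 and a gene's value as the mean of its probes.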

Additional observations from a re-analysis of the deposited data

Results flagged for a closer look

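In 6 of 38 groups of 4 or 5 arrays (15.8%), 1 array lay farther from the rest than Dixon's 95% criterion allows, which chance alone would give in about 1 of 20 groups. Inhba was lowest on irradiated array 1, at a log2 intensity of 8.33, with the other irradiated arrays between 10.04 and 10.64. Tgfbr1 was highest among the controls on control array 3, at 12.06, with the other controls between 11.91 and 11.93. Tgfbr3 was lowest among the irradiated arrays on array 2, at 12.62, with the others between 13.00 and 13.12. Among the marker lists, given relative to the control mean, the fibroblast mean was highest on control array 1, at 0.14, with the other controls between -0.06 and -0.03. The cardiac muscle mean was lowest on irradiated array 1, at -5.39, with the others between -0.44 and 0.38. The skeletal muscle mean was highest on control array 3, at 4.44, with the others between -1.82 and -1.22. The cause of these deviations was not tested.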

How the results depend on the processing

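The median log2 difference of the 10 genes, 0.18, stayed between 0.08 and 0.26 over all alternatives. Apart from Tgfb1, which was -0.021 to 0.25 on leaving out single arrays (lowest without irradiated array 2), each gene kept its direction in all 22. The highest unadjusted limma p over the 22 was 0.059 for Inhba and 0.046 for Ltbp2. For Tgfbr1 and Tgfbr2 it was 0.126 and 0.090, both in the authors' table, where their log2 differences were 0.21 and 0.28. The number of probes past the threshold, 131, was 44 in the authors' table, 44 without an intensity trend, 5 at an adjusted p below 0.01, 1099 with scan pairs as a fixed block, 2895 with them as a random block, and 5 to 484 on leaving out single arrays, highest without irradiated array 1. Of the 10 genes, 0 to 1 passed on leaving out single arrays, 1 with the fixed block, 4 with the random block, and 1 without irradiated array 1 and control array 3. Of the pathway genes, 1 in the comparison of all arrays, 0 to 4 passed on leaving out single arrays (Bmp6, Thbs1, Fn1 and Timp1 without irradiated array 1), 0 without an intensity trend, 0 at an adjusted p below 0.01, 2 with array weights (Fn1 and Bmp6), 11 with the fixed block and 14 with the random block. The cause was not tested. Arrays with the same replicate number did not deviate together (correlations 0.12, -0.03, -0.0043 and -0.21), so the numbers give no pairing. With the number as a replicate block 1 probe passed, 0 of the pathway genes and 0 of the members. The planned block by slide could not be fitted because the files name none, and the scan pairs were chosen after seeing the data. Precision is limited by 9 arrays of pooled RNA without a stated dose, region or time.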
